A study of Mus musculus with 3 samples.

Results

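The cells described here were 623 of all 5023 cells from mouse testes sorted for germ cells, or 12.4% (exact binomial 95% interval 11.5% to 13.3%). The 5023 include some leukocyte-like cells and cells with Sertoli cell transcripts. In the 623 cells *Cstl1*, *Tex37* and *Prss58* stood highest among 12 trios of stage marker genes. For each cell the deposited log values of the 3 genes of a trio were averaged, each trio was z-scored over all cells of the table, and the cell was kept when this trio, called trio I, gave the highest z-score. The other trios used below mark meiotic spermatocytes (C and D), round spermatids (E, F and G), elongating spermatids (H), the most condensed spermatids (J), cells with Sertoli cell transcripts (K) and leukocytes (L). The cells were thus chosen by the measured levels of their genes, so the levels of the trio genes and the contrasts with other stages are descriptions without a test.

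All animals were ICR mice, an outbred stock. The labels give the age as postnatal day 21 before the injection, in which AAV9, a viral vector, carried into the testis either a control hairpin (shCtrl) or 1 of 2 short hairpins against the long non-coding RNA *Gm4665* (hairpin 1 and hairpin 2), in each case together with red fluorescent protein (RFP). Per the labels, the control and the *Gm4665* hairpin went into opposite testes, although no source used here says whether the control and knockdown libraries share animals. Somatic cells were depleted, and RFP-positive germ cells were sorted before 10x Genomics 3' sequencing. There was 1 library for the control and 1 for each hairpin, and no comparison between groups has a replicate. The design text gives 3 mice per condition, and the sources used here do not say how their cells were combined. The sources used here name neither the promoter driving the hairpins nor the age at collection.

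At this stage of mouse spermiogenesis the haploid nucleus is being compacted. Most histones are removed and replaced first by transition proteins, encoded by *Tnp1* and *Tnp2*, and then by protamines, encoded by *Prm1* and *Prm2*. Transcription stops as the nucleus condenses, and the messages for tail, acrosome and nuclear proteins are stored and translated later.

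The control library supplied 193 of these cells, hairpin 1 supplied 283 and hairpin 2 supplied 147. Their summed unique molecular identifiers (UMIs, single captured transcripts) numbered 4357667, 5947771 and 2823453, with medians per cell of 17670, 16581 and 14595 UMIs, and 3016, 3007 and 3008 genes were detected in the median cell. No cell barcode was shared between the members of different libraries (0 pairs), while 18 barcodes recurred between libraries over all cells. Levels below are CPM, the UMIs of a gene scaled to a common total after summing over these cells of a library, in the order control, hairpin 1 and hairpin 2, and their 95% intervals (exact Poisson for levels, exact binomial for shares) cover counting error only.

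The label was checked against the transition protein genes, which the rule did not use. *Tnp1*, the gene of transition protein 1, stood at 40187, 38702 and 41863 CPM. Its level was 1.59, 1.58 and 1.72 times that of trio H cells and 2.02, 1.85 and 1.45 times that of trio J cells. *Tnp2*, the gene of transition protein 2, gave 36667, 33334 and 34935 CPM, or 1.46, 1.38 and 1.52 times the trio H level and 2.13, 2.08 and 1.89 times the trio J level. An exon of *Tnp1* overlaps *1700027A15Rik* on the other strand, whose reads could not be separated from it if strand was ignored. Both transition protein genes were highest in trio I cells among the spermatid trios E to J in every library, as the name transition-protein stage says. Together they took 7.69%, 7.20% and 7.68% of all UMIs of these cells, against 5.03%, 4.87% and 4.72% in trio H cells and 3.71%, 3.70% and 4.73% in trio J cells. Since the same cells were sorted into stages by their expression, these ratios describe the stages and test nothing.

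**Figure D1:**
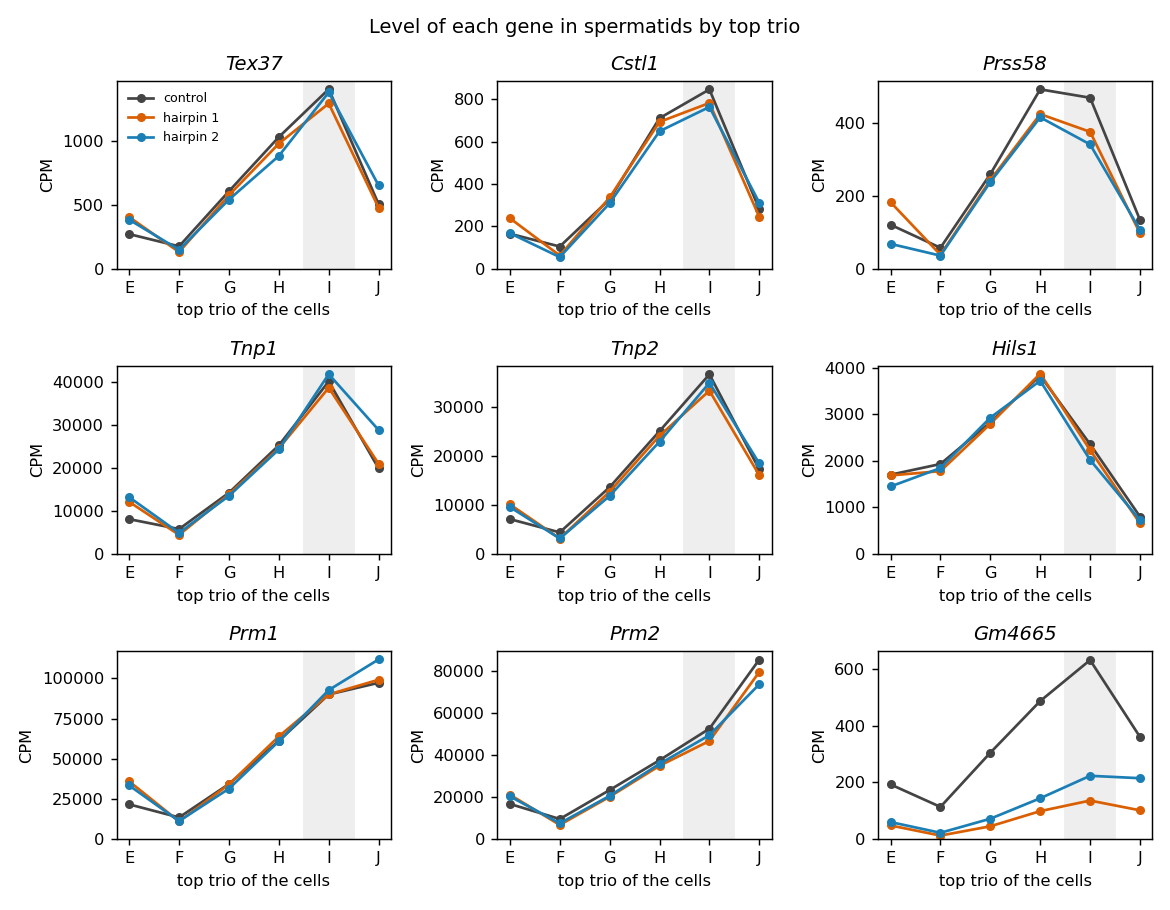
Level (CPM, linear axis from 0) of 9 genes in cells whose top trio was E, F, G, H, I or J, with 1 line per library and trio I shaded. *Tex37*, *Cstl1*, *Tnp1*, *Tnp2* and *Gm4665* peaked in trio I cells in all 3 libraries, *Prss58* and *Hils1* peaked in trio H cells, and *Prm1* and *Prm2* were highest in trio J cells.

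The 3 genes of the trio did not peak together. *Tex37*, a testis-expressed gene, stood at 1403, 1291 and 1378 CPM and was detected in 100% of the trio I cells of every library. *Cstl1*, which encodes a cystatin-like protein of the cysteine protease inhibitor family, stood at 848, 783 and 765 CPM and was likewise detected in every cell. Leukocyte-like trio L cells, which should express neither, held at least 1 *Tex37* UMI in 75.0%, 61.7% and 59.1% of cells and at least 1 *Cstl1* UMI in 65.0%, 56.4% and 40.9%, at median depths of 14002, 9700 and 13294 UMIs. The share of cells with a UMI therefore has a high background here, and the CPM are the more informative values. *Prss58*, a trypsin-like serine protease gene, stood at 469, 376 and 341 CPM, below its own level in trio H cells (492, 424 and 415 CPM) in each library. Its part in the trio thus reached back into the preceding stage.

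The regions just upstream of the trio genes and of the main transition protein and protamine genes are shown, the latter because they are the genes by which the stage is known. Each is the 250 bases before the RefSeq gene start on GRCm38.p6, read on the strand of the gene. Capitals mark matches on either strand to TGACNTCA, the cAMP response element with its middle base unspecified. As background, the factor CREM binds such elements in spermatids. The letter pattern was chosen after the sequences had been seen.
*Tex37*, chr6:70918923-70919172, minus strand: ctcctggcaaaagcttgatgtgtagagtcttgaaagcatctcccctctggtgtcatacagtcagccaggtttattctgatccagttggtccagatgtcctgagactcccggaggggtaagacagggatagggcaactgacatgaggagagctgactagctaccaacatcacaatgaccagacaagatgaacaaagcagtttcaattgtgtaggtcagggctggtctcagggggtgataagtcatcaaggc
*Cstl1*, chr2:148750111-148750360, plus strand: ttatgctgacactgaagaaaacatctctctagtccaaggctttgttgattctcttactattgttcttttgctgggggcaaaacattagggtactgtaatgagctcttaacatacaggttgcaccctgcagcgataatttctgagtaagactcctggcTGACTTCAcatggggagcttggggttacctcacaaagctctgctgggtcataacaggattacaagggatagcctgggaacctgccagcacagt
*Prss58*, chr6:40900388-40900637, minus strand: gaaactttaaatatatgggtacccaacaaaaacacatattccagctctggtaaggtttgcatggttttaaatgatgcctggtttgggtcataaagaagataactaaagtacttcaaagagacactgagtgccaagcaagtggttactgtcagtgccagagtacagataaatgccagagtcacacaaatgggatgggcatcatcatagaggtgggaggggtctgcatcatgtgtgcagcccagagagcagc
*Tnp1*, chr1:73015900-73016149, minus strand: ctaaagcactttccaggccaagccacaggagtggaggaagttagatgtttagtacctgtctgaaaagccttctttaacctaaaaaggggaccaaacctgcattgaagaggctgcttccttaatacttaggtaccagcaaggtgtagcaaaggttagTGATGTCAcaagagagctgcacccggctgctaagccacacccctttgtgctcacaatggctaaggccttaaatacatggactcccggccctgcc
*Tnp2*, chr16:10788656-10788905, minus strand: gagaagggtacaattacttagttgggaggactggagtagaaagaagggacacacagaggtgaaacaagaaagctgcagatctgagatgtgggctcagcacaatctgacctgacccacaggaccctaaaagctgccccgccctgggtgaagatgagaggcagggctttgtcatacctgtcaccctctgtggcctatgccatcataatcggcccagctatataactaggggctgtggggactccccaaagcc
*Prm1*, chr16:10796824-10797073, minus strand: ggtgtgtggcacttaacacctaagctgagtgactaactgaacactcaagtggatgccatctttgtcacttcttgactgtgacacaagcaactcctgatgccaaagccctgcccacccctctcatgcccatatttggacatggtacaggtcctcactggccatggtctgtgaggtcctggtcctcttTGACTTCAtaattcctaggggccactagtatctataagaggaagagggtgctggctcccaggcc
*Prm2*, chr16:10792106-10792355, minus strand: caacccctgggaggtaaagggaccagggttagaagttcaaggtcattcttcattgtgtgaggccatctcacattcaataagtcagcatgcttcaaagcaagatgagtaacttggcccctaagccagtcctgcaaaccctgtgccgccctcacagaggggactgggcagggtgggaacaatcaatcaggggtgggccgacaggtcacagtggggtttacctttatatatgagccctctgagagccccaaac

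A match was present at base -93 of *Cstl1*, -94 of *Tnp1*, -64 of *Prm1* and -74 of *Hmgb4*, counted from the gene start to the first base of the match. *Prm3*, a gene of the protamine cluster, also held one at -60. None of the letters matched in the windows of *Tex37*, *Prss58*, *Tnp2*, *Prm2*, *Hils1*, *H1fnt* or *Gm4665*. Over all 32851 mouse promoter windows of this length, 7.49% held TGACNTCA and 1.55% held TGACGTCA, the complete element, which is contained in the wider pattern and was found in none of the 12 windows examined. A match describes letters and is not a measured binding site.

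The genes of chromatin compaction divided by the stage at which they peaked. *Prm1* took 90043, 90059 and 92780 CPM of these cells and was higher still in trio J cells (97312, 99209 and 111908 CPM). *Prm2* took 52657, 46786 and 49526 CPM, again below the trio J levels of 85700, 79774 and 73896 CPM. The protamine genes therefore had not reached their highest share of the RNA. Together with *Tnp1* and *Tnp2* they made up 22.0%, 20.9% and 21.9% of all UMIs of the trio I cells.

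*Hils1*, a linker histone gene of condensing spermatids, was already past its peak, with 2358, 2234 and 2020 CPM against 3838, 3879 and 3727 CPM in trio H cells and 798, 653 and 723 CPM in trio J cells. *Cdyl*, which encodes a chromodomain protein linked to histone acetylation and crotonylation, followed the same downward course. It gave 357, 341 and 250 CPM in trio I cells, 749.7, 732 and 623 CPM in trio H cells and 89.9, 69.9 and 47.8 CPM in trio J cells. By contrast, *H1fnt*, the gene of another testis linker histone, was highest in trio I cells at 2163, 1914 and 1837 CPM, against 1827, 1716 and 1567 CPM in trio H cells. The high-mobility-group gene *Hmgb4* also was highest there, at 5460, 5110 and 5287 CPM against 4113, 4058 and 4043 CPM in trio H cells and 2448, 2489 and 2952 CPM in trio J cells. *Prm3* stood at 4087, 4034 and 4419 CPM in trio I cells and at 4412, 4419 and 4909 CPM in trio J cells.

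No gene set trio I cells apart from both neighbouring stages by a wide margin. Of 4710 genes compared, 0 were at least 2-fold above both trio H and trio J cells in all 3 libraries (0% of those compared), and 320 were above both by any amount (6.79%). Ranked by the smallest of their folds over the 3 libraries and both neighbours, the first were *Tnp1*, *Rps27rt*, *Tnp2*, *Cby3* and *Tex37*, followed by *Rps27*, *Txnl4b*, *Gm8730*, *Rplp0*, *Rnf10*, *Phf7* and *Hmgb4*. *Cby3*, a chibby family gene, stood at 347, 298 and 326 CPM, which was 1.61, 1.46 and 1.68 times its level in trio H cells. *Phf7*, which encodes a histone reader and ubiquitin ligase of spermatids, stood at 975, 946 and 907 CPM, against 695, 736 and 719 CPM in trio H cells and 304, 356 and 386 CPM in trio J cells. *Rps27* and *Rps27rt*, and likewise *Rplp0* and *Gm8730*, have near-identical transcripts, so how their reads were split is uncertain.

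The step from trio H to trio I was one of loss. At least 2-fold lower than trio H cells in all 3 libraries were 483 of 5336 genes (9.05%), and 0 (0%) were at least 2-fold higher. The step to trio J cells was of the same kind, with 220 of 4751 genes (4.63%) at least 2-fold higher in trio I and 0 (0%) lower. Against round spermatids of trios E, F and G, 292 of 6016 genes (4.85%) were higher and 2476 (41.2%) lower. At an equal depth of 10000 UMIs the median number of genes per cell was 2237, 2344 and 2380 in trio I cells, between the 2592, 2626 and 2687 of trio H and the 1924, 2016 and 2103 of trio J. This left out 13, 65 and 33 of the trio I cells, which were shallower.

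The stage was a stretch of a continuum and not a sharp class. The median lead of trio I over the second trio was 0.546 z-units in control cells, 0.623 in hairpin 1 cells and 0.404 in hairpin 2 cells. Within 0.1 of the border lay 63 members and, on the other side, 57 cells whose second trio was I. The cells just inside gave 1313 CPM of *Tex37*, 664 CPM of *Cstl1* and 42191 CPM of *Tnp1*, and those just outside gave 1185, 543 and 40931 CPM. In all, 741 cells had trio I second, of which 324 had trio J and 225 had trio H on top.

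Members leaning towards trio H and towards trio J differed in *Hils1* and *Cst13* in the way those stages did. *Tnp1* was higher in members leaning towards trio J, and the stages themselves had that order with hairpin 2 only. Its trio H level was 0.63, 0.63 and 0.58 times the trio I level, and its trio J level 0.49, 0.54 and 0.69 times. In the control, members with trio H second held 29954 CPM of *Tnp1* and those with trio J second 42737 CPM. With hairpin 1 the values were 32053 and 41816 CPM, and with hairpin 2 they were 30260 and 43840 CPM. *Hils1* went the other way, at 3906 against 2028 CPM in control cells, 3657 against 1971 CPM with hairpin 1 and 3529 against 1894 CPM with hairpin 2. So did *Cst13*, a testis cystatin gene, with 1362 against 438 CPM in control cells, 1049 against 435 CPM with hairpin 1 and 1050 against 358 CPM with hairpin 2. These 3 genes had the same direction in every library, as did others such as *Tnp2* and *Cdyl*, while some genes did not. *Tsks*, the gene of a testis kinase substrate, gave 1033 against 926 CPM in control cells, 1032 against 949 CPM with hairpin 1 and 677 against 726 CPM with hairpin 2. The hairpin 2 members with trio H second were only 11 cells with 107 *Tsks* UMIs, so this small difference in order rests on few counts.

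The share of trio I cells differed between the hairpins. They were 13.6% of the control library (11.9% to 15.5%), 16.3% of the hairpin 1 library (14.6% to 18.2%) and 7.85% of the hairpin 2 library (6.67% to 9.16%). As a share of the spermatid trios E to J they were 18.8% (16.4% to 21.3%), 28.3% (25.5% to 31.2%) and 16.8% (14.3% to 19.4%). By both shares hairpin 1 stood above the control and hairpin 2 below it, so that the knockdown libraries shared no direction in these values. Among spermatids the intervals of the control and hairpin 2 overlapped, and over all cells those of the control and hairpin 1 did. The order of control and hairpin 1 turned round when trios were z-scored within each library, with 15.3%, 13.2% and 10.3%. Sorting for RFP and 1 library per group mean that the treatment and the making of the library cannot be told apart.

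What stood second in these cells also differed by library. Trio J was second in 72.0%, 52.7% and 69.4% of the members and trio H in 13.5%, 15.5% and 7.48%. A trio of spermatogonia, spermatocytes or round spermatids (A to G) was second in 9 of 193 control cells (4.66%, 2.15% to 8.67%), 63 of 283 hairpin 1 cells (22.3%, 17.6% to 27.6%) and 19 of 147 hairpin 2 cells (12.9%, 7.96% to 19.4%). These cells were shallower, with median depths of 12148, 12333 and 10707 UMIs against 18964, 18528 and 16455 UMIs where trio J was second. The part of depth, or of captured RNA from other cells, in this difference was not tested.

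**Figure D2:**
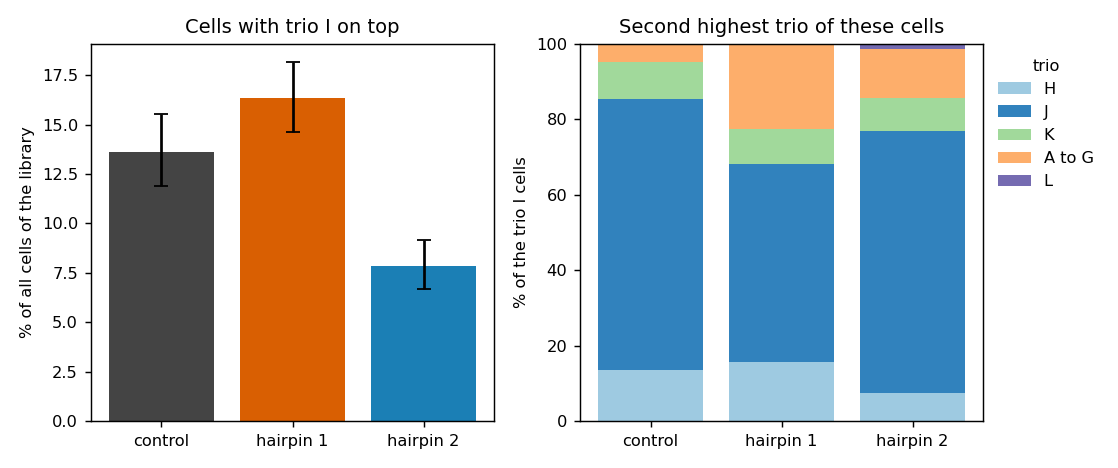
Left, trio I cells as a percentage of all cells of each library with exact binomial 95% intervals (13.6%, 16.3% and 7.85%). Right, the second highest trio of those cells as stacked percentages, with trio J the most frequent in every library and trios A to G making up 4.66%, 22.3% and 12.9%.

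*Gm4665*, the target of the hairpins, was lower in the trio I cells of both knockdown libraries. Per GENCODE vM21 the gene lies on mm10 chromosome 9 at 115180404 to 115186058 on the minus strand and is annotated as an antisense transcript. Control cells held 631 CPM (608 to 655), hairpin 1 cells 135 CPM (126 to 145) and hairpin 2 cells 222 CPM (205 to 241). These levels were 4.67 and 2.84 times lower than in the control, with log2 folds, computed on CPM plus 1, of -2.22 (-2.34 to -2.11) and -1.50 (-1.63 to -1.38). *Osbpl10*, the gene in which it lies on the opposite strand, gave 103, 91.0 and 80.8 CPM, or log2 folds of -0.17 and -0.34, and whether counting used strand is stated in none of the sources used here. A *Gm4665* UMI was present in 98.4%, 83.0% and 93.2% of trio I cells, against 65.0%, 9.57% and 14.9% of trio L cells, which should lack it.

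Among the spermatid trios the control level of *Gm4665* was highest in trio I, with 304 CPM in trio G, 486 CPM in trio H and 360 CPM in trio J cells. With hairpin 1 the same trios gave 44.2, 97.7 and 100.5 CPM. With hairpin 2 they gave 70.8, 143 and 214 CPM, so that trios I and J were near each other. Within the stage, control members with trio H second held 424 CPM and those with trio J second 664 CPM. With hairpin 1 the same cells gave 130 and 145 CPM and with hairpin 2 they gave 215 and 228 CPM, a much narrower gap. The hairpin 2 value for members with trio H second rests on 34 UMIs from 11 cells.

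Over all genes, the trio I cells of both hairpin libraries had more genes above the control than below it. Of 4940 genes with a mean of at least 10 CPM and at least 30 UMIs, 139 were at least 2-fold higher with both hairpins (2.81%) and 10 were at least 2-fold lower with both (0.202%). With hairpin 1 alone, 208 genes passed 2-fold upwards (4.21%) and 43 downwards (0.87%), and with hairpin 2 alone, 290 were higher (5.87%) and 41 lower (0.83%). By any amount, 48% were above the control with both and 30.2% below it with both, and the median log2 fold of all genes was 0.10 with hairpin 1 and 0.08 with hairpin 2. Both folds share the same control cells, so a low count in the control raises both. The filter used the mean of 3 libraries, 2 of them with hairpins, which favours higher over lower genes. Genes such as *Atp6v1e2*, *Pbk*, *Pdia6*, *Jchain*, *Plk1*, *Cenpf*, *Slc2a3* and *mt-Nd3* were below 10 CPM in the control and passed through the hairpin libraries. Without the filter, 414 genes were higher and 63 lower, so that 86.8% of those called were higher. Of the genes called, 93.3% were higher, against 83.5% with factors from the trimmed mean of M-values (71 higher, 14 lower) and 81.6% with median-of-ratios factors (62 higher, 14 lower). Those factors moved the median of all genes to -0.02 and -0.10, and to -0.06 and -0.12.

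**Figure D3:**
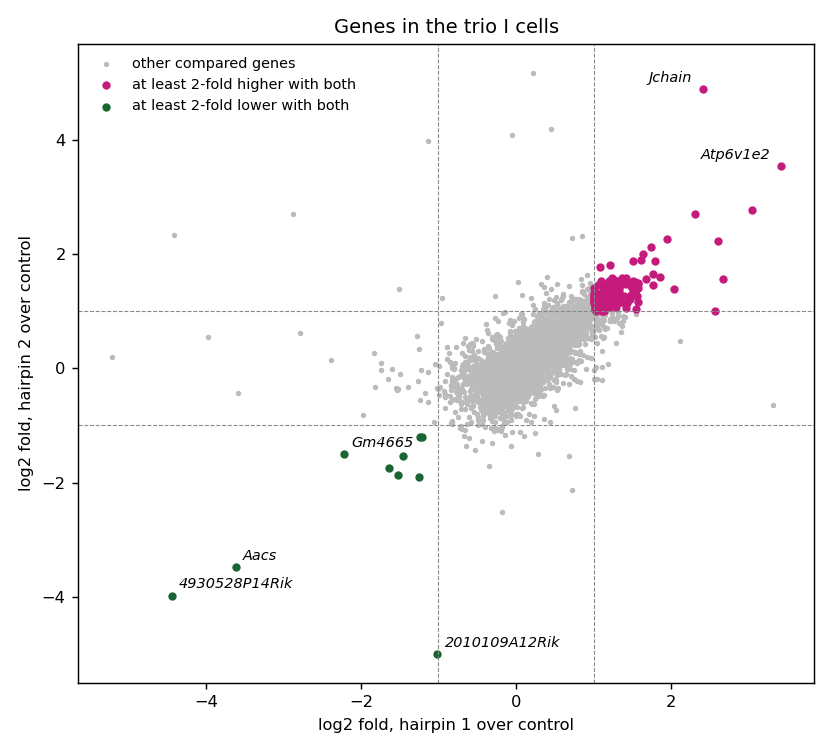
Log2 fold over the control with hairpin 1 (horizontal) and hairpin 2 (vertical) for the 4940 genes compared in trio I cells, with dashed lines at 2-fold. The 139 genes higher with both are at upper right and the 10 genes lower with both, with *Gm4665* among them, at lower left; both axes share the control cells.

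The higher genes were mostly RNAs of earlier germ cells. In the control library, 131 of the 139 (94.2%) were at least 2-fold more abundant in spermatocytes of trios C and D than in trio I cells, against 43.9% of all genes compared. For round spermatids of trios E, F and G the count was 122 (87.8%), against 42.1%. These shares have the control level of trio I cells in common with the call itself, which favours genes low there. Trio C and D cells numbered 137, 360 and 343 in the respective libraries. Without the cells whose second trio was A to G, 94 genes were at least 2-fold higher, 90 of them among the 139, and 9 were lower, all 9 among the 10. In trio H cells 70 of 5600 genes were at least 2-fold higher with both hairpins, 42 of them among the 139. In trio J cells 111 of 4494 genes were, 61 of them among the 139. The neighbouring stages come from the same libraries. Whether RNA released by the more numerous spermatocytes has a part in the higher genes was not tested.

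The gene highest by the smaller of its folds was *Atp6v1e2*, which encodes a testis form of a subunit of the vacuolar proton pump. Its trio I levels were 5.97, 73.5 and 80.0 CPM. Round spermatids of trio G, with 32.5, 185 and 221 CPM, had a gap in the same direction but a smaller one. *Pbk*, a mitotic kinase gene, was also among the first 10, at 4.36, 17.3 and 15.9 CPM. *Pdia6*, a protein disulfide isomerase gene of the endoplasmic reticulum, gave 7.34, 25.1 and 32.6 CPM. The unnamed genes *1700023F02Rik*, *Gm34732*, *Gm17019* and *Gm21190* were among them too. *Tpm3-rs7* and *Dnajc8* belong to the same 10 but have near-identical copies (*Tpm3* and *Gm4928*), so their counts are uncertain.

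*Jchain*, which encodes the joining chain of antibodies, is known as a gene of antibody-secreting cells. Control cells held 1.38 CPM of it from 6 UMIs, hairpin 1 cells 11.6 CPM and hairpin 2 cells 69.4 CPM. At least 1 UMI was seen in 3.11%, 21.2% and 72.1% of trio I cells. Trio L cells held 512, 17454 and 12022 CPM of it and numbered 20, 94 and 181. The markers of the antibody lineage, of which 6 of 9 were analysed here, summed to 5.28, 21.7 and 85.4 CPM in trio I cells, and *Cd79a* and *Cd79b* were at 0 in the control. The number of trio L cells and their summed *Jchain* UMIs (177, 19534 and 36615) ran in the same order as the trio I level. Their *Jchain* CPM did not. Neighbouring stages had much the same levels as trio I, with 0.903, 9.77 and 65.6 CPM in trio H cells and 0.962, 12.4 and 59.2 CPM in trio J cells. The part of trio L cells in the result was not tested.

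The genes lower with both hairpins were led by a pair of very low RNAs. The long intergenic RNA *4930528P14Rik* stood at 42.7, 1.01 and 1.77 CPM. *Aacs*, the gene of acetoacetyl-CoA synthetase, which activates ketone bodies for lipid synthesis, gave 29.8, 1.51 and 1.77 CPM. Both were lower by more than *Gm4665* itself. Trio H cells had the same gap, with 31.6, 0.945 and 1.11 CPM of *4930528P14Rik* and 33.7, 0.315 and 1.48 CPM of *Aacs*. *2010109A12Rik* separated the hairpins, at 155 CPM in the control, 76.3 CPM with hairpin 1 and 3.90 CPM with hairpin 2.

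Other genes of the 10 showed smaller differences. *Tmem242*, a transmembrane protein gene, gave 41.5, 13.8 and 10.6 CPM. *AK157302* gave 67.2, 20.8 and 19.5 CPM but has a near-identical copy, *Isca1*, whose own level was 767, 773 and 880 CPM, so its count is uncertain. *Aknaos*, at 35.8, 12.4 and 11.7 CPM, is antisense to *Akna*, and without the strand of counting the pair cannot be told apart. *Scgn*, the gene of a calcium-binding protein, gave 38.6, 16.1 and 16.3 CPM. *Tmem239* gave 18.6, 7.23 and 4.25 CPM and is uncertain because of a near-identical copy. Of the 10 genes, 6 were also at least 2-fold lower with both hairpins in trio H cells, where 13 of 5600 genes were (0.232%), and 3 in trio J cells, where 10 of 4494 genes were (0.223%). These cells come from the same libraries.

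Chromatin compaction genes differed little between the libraries. Of 12 compared members, 0 were 2-fold from the control with both hairpins, against 2.81% of all genes higher and 0.202% lower. A count of 0 among 12 genes is near those shares. By any amount, 3 were above the control and 7 below it with both, against 48% and 30.2% of all genes. The medians were -0.07 and -0.06 on the log2 scale. *Tnp1* gave log2 folds of -0.05 and 0.06 and *Prm1* 0.00 and 0.04, and these 4 values lay below 0 with trimmed-mean and with median-of-ratios factors. *Cdyl* had the lowest fold with hairpin 2, -0.51, against -0.07 with hairpin 1, but the former was -0.07 in cells with a lead of at least 0.5 z-units, -0.30 with second trios weighted to the control mix and -0.84 with z-scores within each library. *Chd5*, a chromatin remodeller gene, gave 66.8, 89.3 and 77.6 CPM, and *Brdt*, the gene of a bromodomain reader of acetylated histones, gave 22.0, 26.4 and 29.8 CPM. *Psme4*, the gene of a proteasome activator that acts on histones, gave 23.4, 18.3 and 21.6 CPM. *Rnf8*, a ubiquitin ligase gene, had 3 UMIs in the control cells and was not compared.

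The lists of sperm tail genes had medians close to the control. Of all genes, 48% were above the control with both hairpins and 30.2% below it, to be set beside the counts of these lists. Of 17 compared genes of the fibrous sheath and outer dense fibres, 11 were below the control with both, with medians of -0.09 and -0.09. At least 2-fold different with both were 0, against 2.81% of all genes higher and 0.202% lower, and 0 of 17 is near those shares. *Akap4*, the main scaffold of the fibrous sheath, stood at 1784, 1474 and 1420 CPM, and *Odf2*, an outer dense fibre gene, at 4054, 3883 and 3624 CPM. The 4 members above the control with both were *Ropn1l*, *Tekt1*, *Tekt2* and *Tekt4*, of which the last 3 encode tektins, filament proteins of the axoneme. Of 9 compared genes of the mitochondrial sheath, 5 were below and 4 above, with medians of -0.11 and -0.13. *Smcp*, the gene of a mitochondrial capsule protein, stood at 6613, 5938 and 6040 CPM. Of 13 compared genes of the manchette and of tail transport, 8 were above and 3 below, with medians of 0.18 and 0.16, and the second turned to -0.02 and -0.03 under the other scalings.

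Acrosome genes stood above the control as a group. Of 19 compared members, 16 were above it with both hairpins and 1 was below, against 48% and 30.2% of all genes. At least 2-fold different were 0, against 2.81% of all genes higher and 0.202% lower. The list had medians of 0.41 and 0.50 against 0.10 and 0.08 for all genes. The medians were 0.29 and 0.32, and 0.25 and 0.30, under the other scalings. The list includes *Zp3r* of trio E and *Spam1* of trio F, whose values the rule used, and without them 14 of 17 were above and 1 below, with medians of 0.45 and 0.57. *Spink2*, the gene of an acrosomal protease inhibitor, stood at 223, 351 and 420 CPM. *Acrbp*, which encodes the binding protein of proacrosin, gave 174, 238 and 257.5 CPM. *Crisp2*, a sperm surface and acrosome gene, was the 1 member below the control, at 3109, 2874 and 2871 CPM. Of the 19 members, 14 were lower in trio I than in trio H cells in all 3 libraries, so the list holds mostly RNAs in decline at this stage, and without the cells whose second trio was A to G its medians were 0.18 and 0.47.

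Genes of the meiotic divisions were at low levels and above the control throughout. All 9 compared members were above it with both hairpins, with medians of 0.98 and 0.93, against 48% of all genes above with both and medians of 0.10 and 0.08. At least 2-fold higher, as were 2.81% of all genes, were *Cenpf*, a kinetochore gene, and *Plk1* and *Aurka*, kinases of cell division, named here because they passed that threshold. *Aurka* stood at 11.9, 28.2 and 26.9 CPM and *Plk1* at 6.88, 22.2 and 18.1 CPM. The 16 genes of the list summed to 157, 305 and 306 CPM in trio I cells. In trio H cells they summed to 148, 279 and 281 CPM and in trio J cells to 134, 288 and 277 CPM, so the gap to the control was much alike in the 3 neighbouring stages. The sum in trio I cells was 152, 277 and 292 CPM without the cells whose second trio was A to G. *Aurka* and *Ccna1* are genes of trio C, and without them all 7 compared members were above and 2 were at least 2-fold higher.

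**Figure D4:**
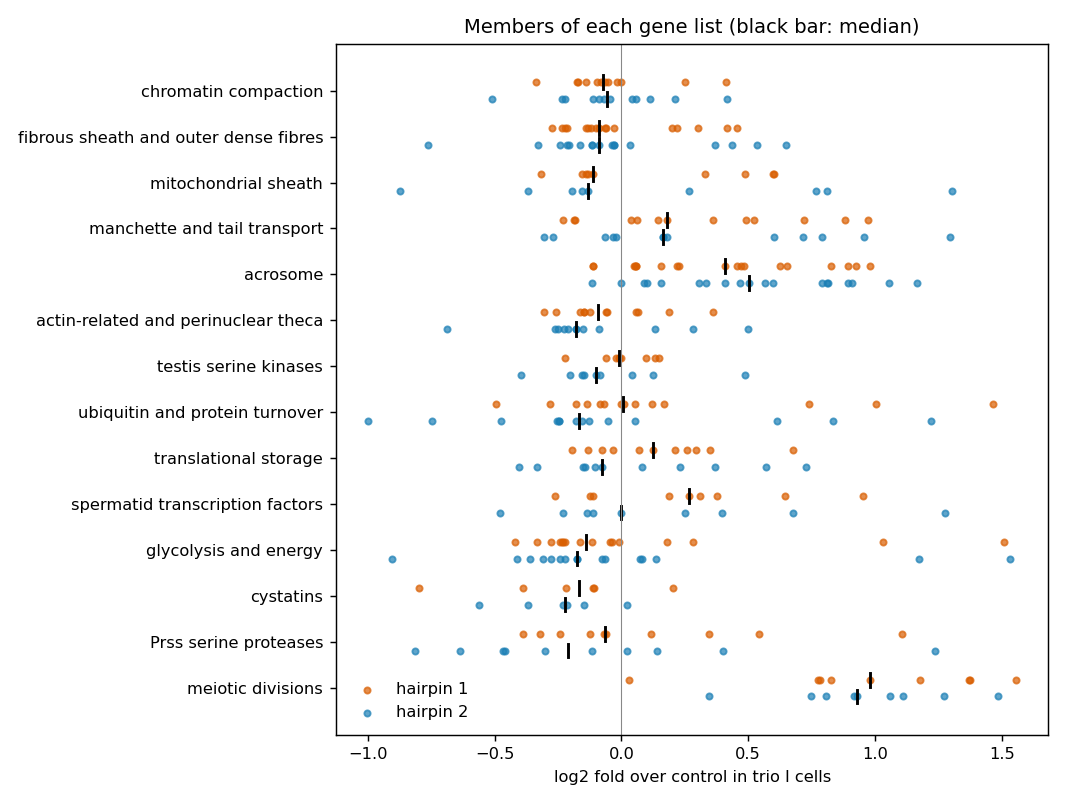
Log2 fold over the control in trio I cells for every compared gene of 14 lists, hairpin 1 above and hairpin 2 below in each list, with a black bar at the median. The acrosome list (medians 0.41 and 0.50) and the meiotic division list (0.98 and 0.93) lie to the right of 0 under every scaling tried, and the chromatin compaction list (-0.07 and -0.06) just to the left.

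Energy and protein turnover genes were mostly at control levels or slightly below. Of 16 compared glycolysis genes, 11 were below the control with both hairpins and 4 above, against 30.2% and 48% of all genes. Their medians were -0.14 and -0.17. *Gapdhs*, the sperm form of glyceraldehyde-3-phosphate dehydrogenase, stood at 3776, 3209 and 3189 CPM, and *Ldhc*, the sperm lactate dehydrogenase gene, at 3276, 3715 and 3470 CPM. Of the 16 glycolysis genes, 2 were at least 2-fold higher with both, as were 2.81% of all genes. *Slc2a3*, a glucose transporter gene, gave 8.03, 24.7 and 25.1 CPM, and *Pfkp*, a phosphofructokinase gene, 12.2, 25.9 and 28.7 CPM. Of 14 ubiquitin and turnover genes, 7 were below and 4 above. *Ubb*, a polyubiquitin gene, gave 2357, 2562 and 2449 CPM. *Slc2a3* and *Pfkp* were singled out after their values were seen.

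Most compared members of the gene families to which *Cstl1* and *Prss58* belong differed from the control by less than 2-fold, as did most genes. Over all genes compared, 2.81% were at least 2-fold higher with both hairpins and 0.202% lower. By any amount, 48% were above the control with both and 30.2% below it. Of 6 compared cystatins, 5 were below the control with both hairpins and 1 above, with medians of -0.17 and -0.22. These 6 include *Cstl1* itself and *Cst9* and *Cst12* of trio K, whose values the rule used; of the other 3, 2 were below and 1 above. *Cst8*, a cystatin of spermatids and epididymis, stood at 1484, 1277 and 1266 CPM, and *Cst13* at 598, 555 and 405 CPM. Of 10 compared Prss serine protease genes, 6 were below and 4 above, with medians of -0.06 and -0.21. Without *Prss58*, 5 of 9 were below and 4 above, with medians of -0.06 and -0.12. *Prss39* stood at 725, 667 and 669 CPM. *Prss46* was the 1 member at least 2-fold higher with both, at 32.8, 71.8 and 78.6 CPM, and is named for that.

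Other lists had mixed directions, where 48% of all genes were above the control with both hairpins and 30.2% below it. Of 12 actin-related and perinuclear theca genes, which shape the sperm head, 7 were below and 2 above the control, with medians of -0.09 and -0.18, and 6 of 11 were below without *Actrt3*, a gene of trio H. Of 9 testis kinases and partners, 4 were below and 2 above. Of 9 transcription factors, 4 were above and 3 below, and *Tbpl1*, the gene of a TATA-binding-protein relative needed in spermatids, gave 92.0, 179 and 225 CPM. Of 11 genes of translational storage, 5 were above and 4 below. The medians of the transcription factor, ubiquitin and storage lists differed in sign between the hairpins, and those of the kinase list were -0.01 and -0.10.

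Markers of other cells were low in the trio I cells, with exceptions. Of 14 Sertoli cell markers, which summed to 85.8, 59.9 and 84.3 CPM, *Amh* and *Inhbb* were at 0 in every library, and *Defb19*, *Cst9* and *Cst12*, the genes of trio K, gave most of the UMIs. The 9 macrophage markers summed to 125, 110 and 141 CPM, mostly from *Apoe* and *C1qb*, with 0, 9 and 1 UMIs of *Lyz2*. *Cd74*, an antigen presentation gene in the same list, had 8, 94 and 34 UMIs, or 1.84, 15.8 and 12.04 CPM, and so was higher with both hairpins. T cell markers, of which 5 of 7 were analysed, summed to 128, 142 and 153 CPM, nearly all from *Cd3d*. *Cd3e* had 0, 0 and 1 UMIs and *Nkg7* had 0. *Cd52*, a gene of trio L whose values the rule used, had 0, 9 and 23 UMIs. That was 0, 1.51 and 8.15 CPM, so *Cd52* was also higher with both hairpins. Leydig cell markers summed to 0.230, 1.35 and 0.354 CPM, with *Cyp17a1*, *Hsd3b1* and *Star* at 0. Red blood cell markers summed to 0.918, 1.35 and 1.77 CPM, and endothelial and myoid markers to 3.67, 7.73 and 4.60 CPM. The mean mitochondrial share per cell was 0.169%, 0.345% and 0.283%, and cytosolic ribosomal protein genes took 3.87%, 4.42% and 4.50% in all. The part of these differences in the gene counts was not tested.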

How the data were processed

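The deposited tables, per the labels' protocols from 10x Genomics 3' libraries of sorted cells, gave natural log (ln) values, which the authors made as ln of 1 plus 10000 times the UMI share of a gene in its cell. Per the submitters' processing notes, Cell Ranger 1.3.1 (mm10) and Seurat 2.0.0 were used. The sources used here state no strand, annotation or cell filter. Whole UMIs were recovered (100.0% of 20140203 non-zero values within 0.01), so UMI sums were used. Column names were matched to hairpin 1 and hairpin 2 by their last digit alone; were that wrong, the hairpins would change places. No cell was removed and no doublet caller was run. Cells were assigned by the 12 trios, and the members and the gene lists were chosen with earlier results of these data known. Genes named were the trio genes, *Gm4665*, the chromatin list, the first 10 per direction by the smaller absolute fold, the first 12 over both neighbouring stages and up to 4 of the most abundant of each other list, plus those said to be singled out. Folds are on log2(CPM + 1), and a call means at least 2-fold the same way with both hairpins, by size alone. Thinning was to 10000 UMIs. With 1 library per group no test was made. The steps were checked on simulated counts. Near-identical copies (blastn 2.17.0) shared at least 98% identity. Python 3.11.15, numpy 2.4.6, scipy 1.17.1, pandas 2.3.3 and matplotlib 3.10.9 were used. Some results are not reported here. Alternatives are given under the closing section.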

Additional observations from a re-analysis of the deposited data

How the results depend on the processing

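The count of genes at least 2-fold higher with both hairpins (139) was 71 with factors from the trimmed mean of M-values, 62 with median-of-ratios factors, 54 with a pseudocount of 5 CPM, 414 without the expression filter, 212 with z-scores within each library and 230 without the 30, 50 and 27 cells above 2 times the median depth, an alternative chosen after seeing the data, as was leaving out cells whose second trio was A to G. The lower count (10) was 63 without the filter and between 8 and 15 in the other settings. The log2 fold of *Gm4665* was -2.34 and -1.68 with trimmed-mean factors, -2.38 and -1.70 with median-of-ratios factors, -2.10 for hairpin 1 at equal depth, which left out 70, 530 and 332 of all cells, and -1.73 for hairpin 2 without the deepest cells. The share of trio I cells in the control, hairpin 1 and hairpin 2 libraries was 7.33%, 9.82% and 3.04% when a lead of 0.5 z-units was asked for, and 18.8%, 28.3% and 16.8% of spermatids. With z-scores within each library it was 15.3%, 13.2% and 10.3%, which turned the order of control and hairpin 1. For the chromatin compaction genes and the list medians, 565 of 676 other values stayed within a set range of the main value and 111 moved beyond it. For a gene this range was the counting error of its main fold. For a list median it was the standard deviation of the folds of the members, which is not counting error. Small folds changed sign, such as that of *Tnp1* with hairpin 2, from 0.06 to -0.13 with trimmed-mean factors. The cause of each move was not tested.

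Each group was 1 library, so the spread between animals is not known, and the intervals cover counting error only. Genes at a few CPM rest on few UMIs. Cells of the stage were chosen by expression, and a change of the trio genes themselves would change which cells were counted.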

Other observations

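Some genes outside the lists were at least 2-fold higher in the trio I cells of both knockdown libraries and were picked after their values were seen. *Hspa5* and *Hsp90b1*, chaperone genes of the endoplasmic reticulum, stood at 14.0, 37.8 and 43.9 CPM and at 14.2, 32.3 and 37.5 CPM in the control, hairpin 1 and hairpin 2 libraries. In trio J cells *Hspa5* gave 13.7, 26.7 and 26.9 CPM and *Hsp90b1* 12.4, 29.4 and 31.0 CPM. Trio L cells held 219.9, 644 and 530.2 CPM of *Hspa5* and 509, 1027 and 915 CPM of *Hsp90b1*, and the antibody lineage markers summed to 5.28, 21.7 and 85.4 CPM in trio I cells. The part of such cells in these values was not tested. *mt-Nd3*, a mitochondrial gene of respiratory complex I, stood at 4.82, 22.9 and 14.2 CPM in trio I cells.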
